A study of Mus musculus with 2 samples.

Results

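The HoxB genes are 1 of 4 clusters of Hox genes in the mouse, and their response to retinoic acid (RA) was read here in embryonic stem (ES) cells with and without Utx. The members were chosen by symbol: Hoxb1 to Hoxb9 and Hoxb13, 10 genes of the 22485 named on the array, carried by 20 features of 44397. The UtxKO group holds ES cells labelled as a Utx knockout, and the V6.5 group holds the wild-type ES cell line V6.5, under whose name the knockout cells are also listed. In both groups untreated cells were kept on gelatin with leukaemia inhibitory factor (LIF), and treated cells had LIF taken away and 100 nM RA added for 48 h. LIF withdrawal and RA came together in every treated sample and cannot be told apart, so "RA" below stands for both. RA-treated (Cy5) and untreated (Cy3) RNA of 1 line shared an Agilent array, with 1 array for each line. Each value is therefore a log2 ratio (RA-treated over untreated cells), a likely direction read from the dyes in the labels, and no line has a replicate. In bulk RNA, more cells expressing a gene and more RNA per cell cannot be told apart.

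Hox genes encode homeodomain transcription factors that give cells their position along the head-to-tail axis. Within a cluster, genes of low paralog number are used earlier and further forward in the embryo than genes of high number, a property called collinearity. RA switches on the low-numbered end of the HoxB cluster in the hindbrain through retinoic acid receptors bound at response elements in and around the cluster. In ES cells the silent clusters carry the H3K27me3 mark of the Polycomb repressor PRC2, and Utx (gene symbol Kdm6a) is an enzyme that removes this mark.

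The upstream sequences of Hoxb1 and Hoxb4 are shown because these genes are induced together and because Hoxb1 is known to maintain its own expression in the hindbrain through sites shared by Hox and Pbx proteins. Both are from RefSeq, assembly GRCm38.p6, plus strand, 5′ to 3′. The Hoxb1 window is chr11:96365508-96365745, 238 bases ending before the first annotated base of the gene. The Hoxb4 window is chr11:96318017-96318266, 250 bases that also end before the first annotated base of the gene. For Hoxb1 the start used in the promoter table lies slightly downstream of that base, and for Hoxb4 the same base is used. Capitals in Hoxb1 mark a match to TGATNNAT, a core of the Hox and Pbx motif, and capitals in Hoxb4 mark the reverse complement of AGGTCA, the half-site of nuclear receptors.
Hoxb1: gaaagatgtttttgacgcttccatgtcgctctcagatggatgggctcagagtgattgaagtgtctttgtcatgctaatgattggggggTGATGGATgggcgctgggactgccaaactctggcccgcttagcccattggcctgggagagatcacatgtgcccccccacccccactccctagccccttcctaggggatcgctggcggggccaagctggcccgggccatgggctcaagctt
Hoxb4: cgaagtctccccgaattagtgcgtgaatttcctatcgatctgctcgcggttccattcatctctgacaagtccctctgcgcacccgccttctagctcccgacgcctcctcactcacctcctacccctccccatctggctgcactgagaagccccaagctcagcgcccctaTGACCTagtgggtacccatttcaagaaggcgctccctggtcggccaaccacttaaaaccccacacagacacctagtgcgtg
The search covered both strands of the 300-base windows of the RefSeq table, which held 3 of the 10 members (Hoxb1, Hoxb4 and Hoxb8). TGATNNAT was present in Hoxb1 and Hoxb8 and in 8.85% of all 32851 windows, and AGGTCA in Hoxb4 and in 16.3% of all windows. The paired retinoid elements DR5 and DR2, which are direct repeats of such half-sites or of 3 close variants, spaced by 5 or 2 bases, had 0 matches in the 3 windows. They were present in 0.0974% and 0.268% of all windows. These matches describe letters only.

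Across the cluster, 9 of 10 genes had ratios of at least 2-fold on each array, and Hoxb13 was the exception on both. Of all named genes, 1.69% reached this on both arrays, and 2.92% were at least 2-fold higher with RA in UtxKO and 2.52% in V6.5. In the opposite direction, which holds 0 HoxB genes, 1.65% of all genes were at least 2-fold lower in UtxKO and 1.59% in V6.5. The median HoxB log2 ratio was 3.02 in UtxKO and 1.90 in V6.5, while the median of all named genes was -0.02 on both arrays. Of the 100 genes with the highest ratio, 8 were HoxB genes in UtxKO and 4 in V6.5. In the limma fit that takes both arrays as 2 samples of a shared response, 9 of 10 HoxB genes rose at an adjusted p under 0.05, and 0 fell, while 8.93% of all named genes rose and 7.93% fell. In limma's stricter test against 1.5-fold (treat), 5 HoxB genes rose (Hoxb1, Hoxb2, Hoxb4, Hoxb5 and Hoxb7), against 0.872% of all genes. Hoxb3, Hoxb6, Hoxb8 and Hoxb9 did not pass that test, with adjusted p of 0.0817, 0.0828, 0.194 and 0.187.

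**Figure D1:**
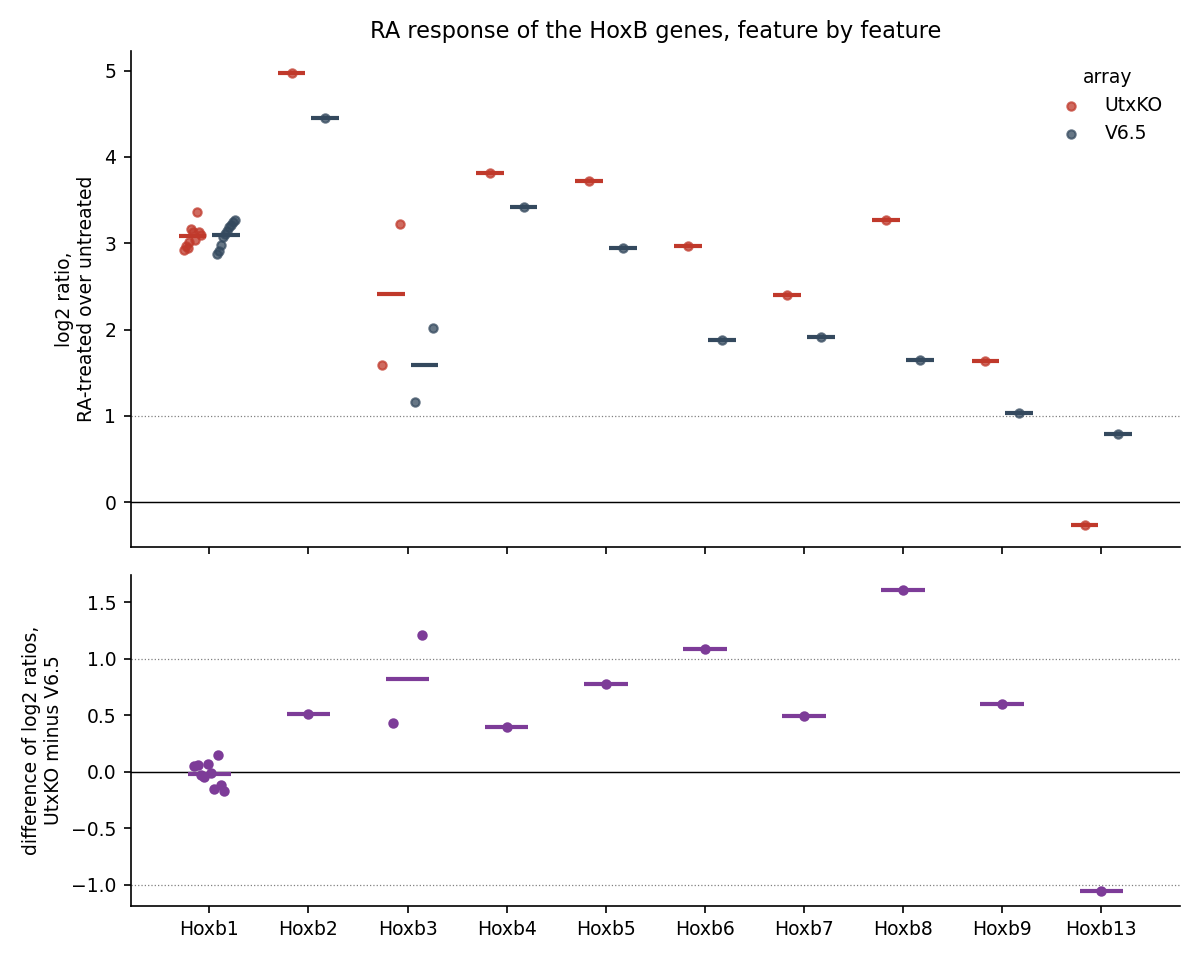
The upper panel shows the response to RA, as log2 of treated over untreated, for each feature (points) and the mean of each gene (bars) on the UtxKO and V6.5 arrays, and the lower panel shows the difference of the ratios, UtxKO minus V6.5. Dotted lines mark 2-fold. Hoxb2 is highest on both arrays, the 10 features of Hoxb1 scatter around a difference of 0, and Hoxb8 has the greatest difference at 1.61.

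The genes of paralog numbers 1 and 2 act in the hindbrain, where Hoxb1 specifies the fourth segment (rhombomere) and Hoxb2 lies downstream of Hoxb1 and of the factor Krox20. Hoxb2 had the highest ratio of the cluster, 4.97 in UtxKO and 4.45 in V6.5, which are 31.3-fold and 21.9-fold. It ranked 9th among all named genes in UtxKO and 10th in V6.5. Hoxb1 was read by 10 features, which ran from 2.92 to 3.36 with a median of 3.07 in UtxKO and from 2.87 to 3.26 with a median of 3.12 in V6.5. All 10 features lay close together, and the ranges of the arrays overlapped almost wholly. The means were 3.08 ± 0.13 in UtxKO and 3.10 ± 0.14 in V6.5 (SD between 10 features of 1 array, a technical spread), 8.44-fold and 8.57-fold. The shared rise was 4.71 ± 0.15 for Hoxb2 and 3.09 ± 0.07 for Hoxb1 (limma's moderated SE, n = 2 arrays), with adjusted p of 0.00504 and 0.00381. The smaller SE of Hoxb1 follows its nearly equal ratios on the arrays.

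Hoxb3, Hoxb4 and Hoxb5 are expressed in the posterior hindbrain and neck region, and Hoxb4 is also known for expanding blood stem cells. Hoxb4 had 3.81 in UtxKO and 3.42 in V6.5, and Hoxb5, which also marks blood stem cells, had 3.72 in UtxKO and 2.95 in V6.5. Both genes were over 7-fold higher with RA in each line, and Hoxb4 passed 10-fold on both arrays. Such a ratio was reached by 0.2% of all genes in UtxKO and 0.191% in V6.5. Hoxb3 had 2 features that did not give the same size. One read 1.59 in UtxKO and 1.17 in V6.5, and the other 3.23 in UtxKO and 2.02 in V6.5. The features of this gene thus lay 1.63 apart in UtxKO and 0.85 apart in V6.5, while its mean of 2.41 in UtxKO and 1.59 in V6.5 differed by 0.82 between the lines. The SD between its features was 1.15 in UtxKO and 0.60 in V6.5, and the median of this SD over genes with 2 to 9 features was 0.14 on both arrays. Both features of Hoxb3 rose when each was tested alone among all features (adjusted p of 0.0106 and 0.0151 in limma). The shared rise was 3.61 ± 0.12 for Hoxb4 and 3.34 ± 0.21 for Hoxb5, with adjusted p of 0.00527 and 0.00916. Hoxb3 rose with an SE of 0.22 and an adjusted p of 0.0172.

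Hoxb6, Hoxb7, Hoxb8 and Hoxb9 belong to the trunk. Hoxb6 is known from the lateral mesoderm, Hoxb7 from the developing kidney, Hoxb8 for roles in the spinal cord and in myeloid cells, and Hoxb9 for rib and mammary development. Hoxb6 had 2.96 in UtxKO and 1.88 in V6.5, Hoxb7 had 2.40 in UtxKO and 1.91 in V6.5, and Hoxb8 had 3.26 in UtxKO and 1.65 in V6.5. Hoxb9 was the lowest of the 9, with 1.63 in UtxKO and 1.03 in V6.5, which is 3.10-fold and 2.05-fold. Its V6.5 value therefore sits just above the 2-fold bound. All 4 genes were higher with RA on both arrays and higher in UtxKO than in V6.5. The shared rise was 2.46 ± 0.41 for Hoxb8, the widest error of the members, with an adjusted p of 0.0342. It was 2.42 ± 0.28 for Hoxb6, 2.16 ± 0.14 for Hoxb7 and 1.33 ± 0.17 for Hoxb9, with adjusted p of 0.0192, 0.00983 and 0.0213.

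Hoxb13, known for its place in the prostate, colon and tail bud, lies apart from the rest of the cluster. Its log2 ratio was -0.26 in UtxKO and 0.79 in V6.5. The mean was 0.27 ± 0.27 and did not pass (adjusted p of 0.551 in limma). It is the member with opposite signs on the arrays, and it is carried by 1 feature.

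The order of the ratios followed the paralog number in part. Across the 10 genes, Spearman's rho between paralog number and log2 ratio was -0.65 in UtxKO and -0.76 in V6.5, and Pearson's r was -0.79 and -0.78. Without Hoxb13, rho over 9 genes was -0.52 in UtxKO and -0.67 in V6.5. These are descriptions across genes of 1 array, which share their RNA and dyes and are not replicates. Hoxb3 broke the order on both arrays by lying below Hoxb4, Hoxb5, Hoxb6 and Hoxb8, and in V6.5 also below Hoxb7. Hoxb1 broke it on both arrays by lying below Hoxb2 and Hoxb4, and in UtxKO also below Hoxb5 and Hoxb8. In UtxKO, Hoxb8 also stood above Hoxb6 and Hoxb7, while in V6.5 these 3 genes lay within 1.65 to 1.91. Neighbours in that run differed by less than Hoxb3's features did within 1 array, so their order is not resolved. By segment, the median was 3.72 in UtxKO and 3.10 in V6.5 for Hoxb1 to Hoxb5, and 2.68 in UtxKO and 1.77 in V6.5 for Hoxb6 to Hoxb9. Ratios do not give the level before or after RA, so a gene that was low at the start and one that was high can share a ratio.

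The comparison of the lines asks whether the cluster responded differently without Utx. The ratio was higher in UtxKO than in V6.5 for 8 of 10 HoxB genes, Hoxb2 to Hoxb9. A ratio higher in UtxKO was found in 50.7% of all named genes. Among the 551 genes outside the Hox clusters with a mean of at least 2-fold, it was found in 60.6%. The median difference of log2 ratios, UtxKO minus V6.5, was 0.56 for HoxB, 0.16 for those 551 genes and 0.00 for all genes. With 1 array for each line, the difference has no replicate check and was not tested.

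Hoxb8 differed most, by 1.61 on the log2 scale, so that its RA response was 3.05-fold larger in UtxKO, the 19th highest difference of all genes. Hoxb6 differed by 1.08 (2.12-fold). A difference of at least 2-fold upward in UtxKO, as in these 2 genes, was found in 0.583% of all genes and in 7.62% of the 551 genes outside the Hox clusters. Hoxb3 differed by 0.82 as a mean of features that differed by 0.43 and 1.21. Hoxb5 differed by 0.78, Hoxb9 by 0.60, Hoxb2 by 0.51, Hoxb7 by 0.49 and Hoxb4 by 0.40. These 6 genes were under 2-fold. For Hoxb1, the member with the most features, the difference lay within the spread of its features: the mean was -0.02, and the 10 features ran from -0.17 to 0.15, with 4 above 0 and 6 below. Hoxb13 went the other way with -1.05, which is 2.07-fold lower in UtxKO. A difference of at least 2-fold downward was found in 0.467% of all genes. Among the 551 genes the share was 7.08%, but Hoxb13, with a mean of 0.27, does not belong to that set. The differences were larger over Hoxb6 to Hoxb9 (median 0.84) than over Hoxb1 to Hoxb5 (median 0.51), a description of 4 and 5 genes.

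**Figure D2:**
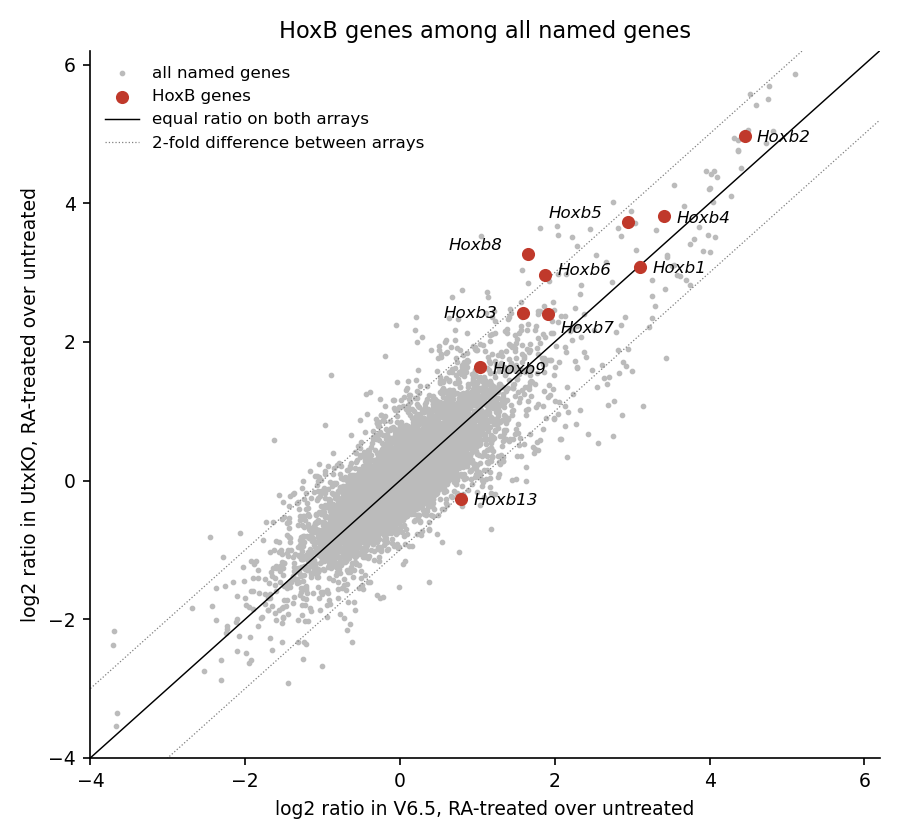
Each grey point is 1 of the 22485 named genes, with its log2 ratio (RA-treated over untreated cells) in V6.5 on the x axis and in UtxKO on the y axis, and HoxB genes are in red. The solid line marks equal ratios and the dotted lines a 2-fold difference; Hoxb6 and Hoxb8 lie above the upper dotted line and Hoxb13 below the lower one.

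The chromosomal neighbourhood was read from the gene order in RefSeq (GRCm38.p6, chromosome 11), used only for which genes adjoin the cluster. Within the cluster, Hoxb5os, a long non-coding RNA gene that overlaps Hoxb5 and Hoxb6, had 2.17 in UtxKO and 1.75 in V6.5 and rose by 1.96 ± 0.13 (adjusted p of 0.00962 in limma). The strand and position of its feature are not known here, so signal from the overlapping genes cannot be told apart. The non-coding genes Gm53 and Gm11538, which lie between Hoxb9 and Hoxb13, had -0.06 and -0.36 in UtxKO, against 0.13 and 0.11 in V6.5. They did not pass in limma (adjusted p of 0.819 and 0.578). The induced run thus ended, among measured genes, between Hoxb9 and Gm53. The microRNA genes Mir10a and Mir196a-1 and the antisense gene Hoxb3os were not analysed here.

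Of the 20 nearest measured genes, 10 on each side, 3 were at least 2-fold higher with RA on both arrays, as were 1.69% of all named genes. In the shared fit these 3 rose and 4 fell (Abi3, B4galnt2, Gngt2 and Gm11523, the last 3 named after their values were seen), while 8.93% of all genes rose and 7.93% fell. Skap1, which encodes an adaptor protein of T-cell signalling, is the nearest protein-coding gene beyond Hoxb1. It had 3.32 in UtxKO and 3.05 in V6.5, 9.98-fold and 8.30-fold, values close to those of Hoxb1. Its shared rise was 3.19 ± 0.10 (adjusted p of 0.00491 in limma). The pseudogene Gm11531 and the non-coding gene Gm11529, which come between Hoxb1 and Skap1 when genes are ordered by their ends, had -0.08 and 0.04 in UtxKO. In V6.5 they had 0.03 and -0.01. On the other side, the tubulin-modifying enzyme gene Ttll6, the nearest to Hoxb13, had 1.36 in UtxKO and 1.67 in V6.5, with an SD between its 2 features of 0.63 in UtxKO and 0.43 in V6.5. The next gene, Calcoco2, a receptor for selective autophagy, had 2.03 in UtxKO and 2.23 in V6.5. Both rose in limma, by 1.52 ± 0.11 and 2.13 ± 0.09 (adjusted p of 0.0103 and 0.00680). In this order, genes near 0 stood between the induced HoxB run and the induced genes on either side. These genes are non-coding genes and a pseudogene with 1 feature each, and their signal over background is unknown. The protein-coding Hoxb13, also with 1 feature, stood on the Ttll6 side as well, with -0.26 in UtxKO and 0.79 in V6.5. Whether induction was continuous along the chromosome was not tested. Skap1 differed between lines by 0.27, Ttll6 by -0.30 and Calcoco2 by -0.19. Abi3, the tenth measured gene beyond Hoxb13, was at least 2-fold lower (-1.11 in UtxKO and -1.20 in V6.5) and fell in limma by 1.16 ± 0.08 (adjusted p of 0.00976). The other 16 neighbours ranged from -0.80 to 0.31 in UtxKO and from -0.61 to 0.34 in V6.5.

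**Figure D3:**
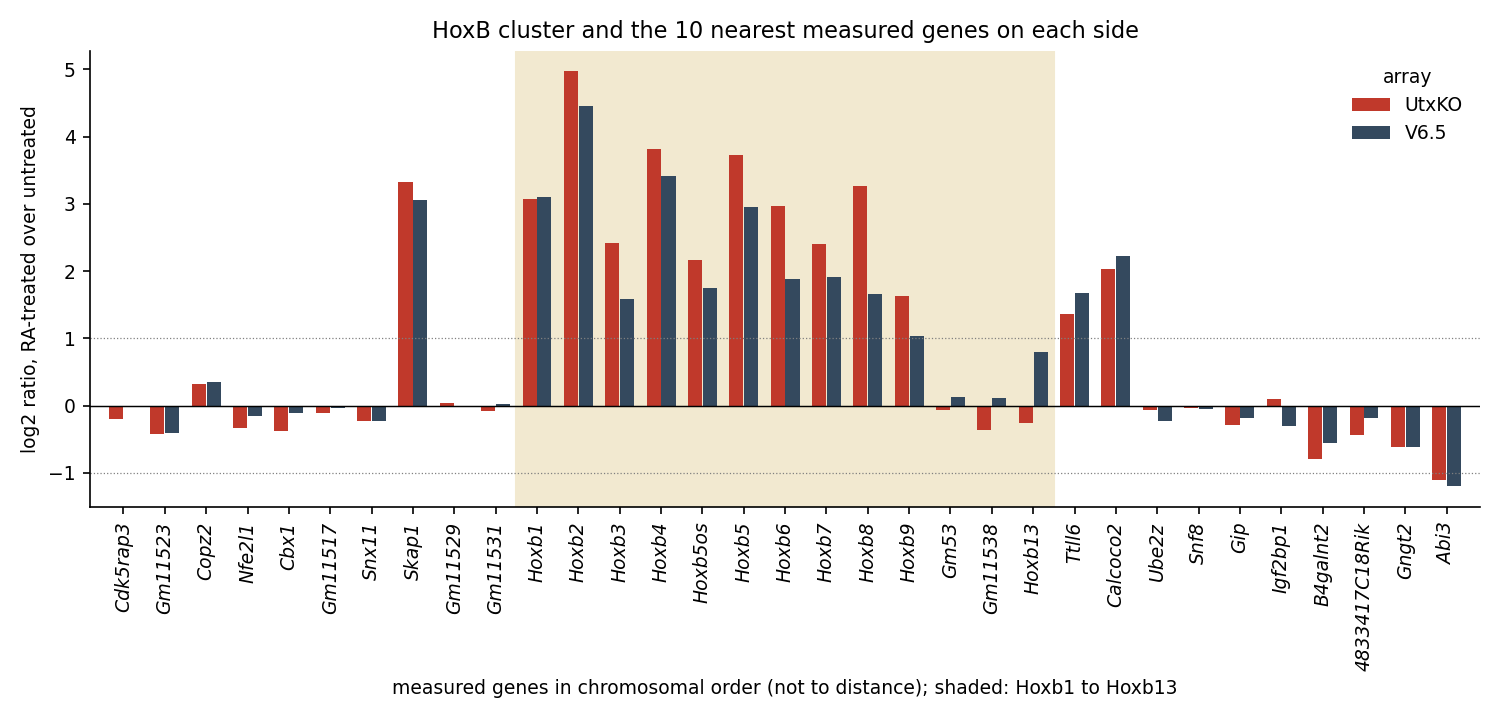
Bars show the log2 ratio (RA-treated over untreated cells) on the UtxKO and V6.5 arrays for measured genes in chromosomal order, not to distance, with the stretch between Hoxb1 and Hoxb13 shaded and dotted lines at 2-fold. Hoxb1 to Hoxb9 stand as a block above 1, Gm53 and Gm11538 lie near 0, and Skap1, Ttll6 and Calcoco2 are high outside the shaded stretch.

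Set beside the other clusters, HoxB had the highest median on both arrays. In the other clusters it was 0.79 in UtxKO and 0.55 in V6.5 for the 10 HoxA genes, 0.13 in UtxKO and 0.06 in V6.5 for the 9 HoxC genes, and 0.51 in UtxKO and 0.64 in V6.5 for the 9 HoxD genes. HoxB has no members of numbers 10 to 12, which were low in the other clusters. Over numbers 1 to 9 alone, the median was 3.08 in UtxKO and 1.91 in V6.5 for 9 HoxB genes, and 1.69 in UtxKO and 1.12 in V6.5 for 7 HoxA genes. It was 1.83 in UtxKO and 0.53 in V6.5 for 5 HoxC genes, and 1.16 in UtxKO and 0.86 in V6.5 for 5 HoxD genes. At least 2-fold higher with RA were 4 HoxA, 3 HoxC and 3 HoxD genes in UtxKO and 4 HoxA, 2 HoxC and 1 HoxD genes in V6.5, against 9 HoxB genes on each array. Of the 10 paralog numbers present in HoxB, the HoxB gene had the highest ratio of its group for 7 in UtxKO and 8 in V6.5. The groups hold 2 to 4 measured genes. Number 3 was led by Hoxa3 (3.96 in UtxKO and 3.67 in V6.5) and number 9 by Hoxc9 (2.65 in UtxKO and 1.13 in V6.5). Hoxd1, the other measured gene of number 1, had 1.27 in UtxKO and 0.86 in V6.5. Hoxa2, the other of number 2, had 2.72 in UtxKO and 1.12 in V6.5. For number 13, Hoxa13, Hoxc13 and Hoxd13 had -0.12, -0.95 and 0.11 in UtxKO, against 0.00, -0.56 and 0.64 in V6.5. The other genes at the top of their clusters were Hoxa5, Hoxc4, Hoxd4 and Hoxd8, with 3.39, 3.64, 1.71 and 1.16 in UtxKO, against 2.29, 1.81, 0.82 and 1.21 in V6.5.

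A ratio at least 2-fold further up in UtxKO was found in 2 of 10 HoxA, 3 of 9 HoxC and 0 of 9 HoxD genes, beside the 2 of 10 HoxB genes. It was found in 0.583% of all named genes and in 7.62% of the 551 genes outside the Hox clusters with a mean of at least 2-fold. For HoxC the 3 were Hoxc4, Hoxc5 and Hoxc9, and for HoxA they were Hoxa2 and Hoxa5. Without the 2-fold bound, the ratio was higher in UtxKO for 8 of 10 HoxB, 7 of 10 HoxA, 6 of 9 HoxC and 3 of 9 HoxD genes. The share was 50.7% of all named genes and 60.6% of those 551 genes. Over numbers 1 to 9 alone, the counts were 8 of 9 HoxB, 6 of 7 HoxA and 5 of 5 HoxC genes. For HoxD the count was 3 of 5. The median difference over these numbers was 0.60 for HoxB, 0.30 for HoxA, 1.30 for HoxC and 0.41 for HoxD. Higher ratios in UtxKO were thus not particular to HoxB, and the differences between clusters were not tested.

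**Figure D4:**
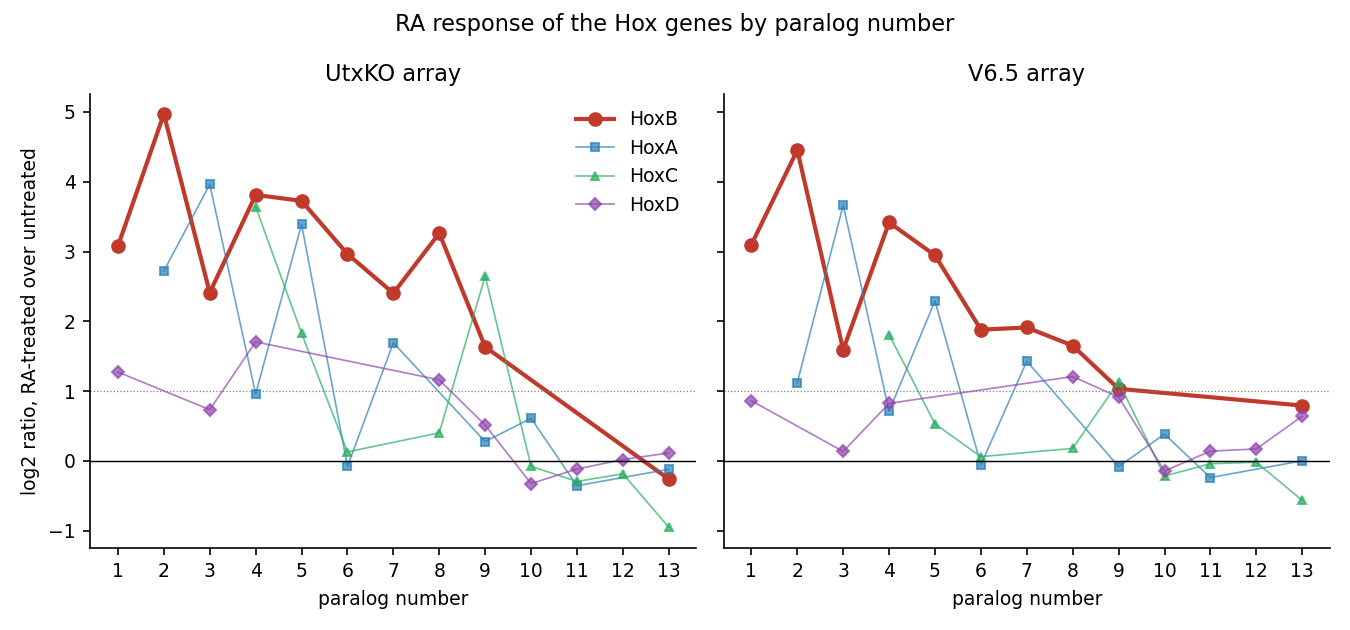
Points show the log2 ratio (RA-treated over untreated cells) against paralog number for each Hox cluster, with the UtxKO array on the left, the V6.5 array on the right and a dotted line at 2-fold. The HoxB line lies on top for most numbers, except at 3 and 9 on both arrays and at 13 in UtxKO.

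Among 24 measured genes that regulate HoxB or act with Hox proteins, 10 rose and 0 fell in limma, beside 8.93% and 7.93% of all named genes. The list median was 0.49 in UtxKO and 0.29 in V6.5. Cyp26a1, which degrades RA, had 4.27 in UtxKO and 3.54 in V6.5, and Cyp26b1, of the same family, had 2.13 in UtxKO and 1.98 in V6.5. The RA receptor gene Rarb had 2.40 in UtxKO and 2.38 in V6.5. These are means of 2 features, with an SD between them of 0.88 in UtxKO and 1.26 in V6.5. The Hox partners Meis1 and Meis2 had 3.51 and 3.68 in UtxKO against 2.22 and 2.03 in V6.5, differences of 1.29 and 1.65. List genes were named for a large mean or a difference of at least 2-fold, so the size of these differences is no separate result. Cdx1, which activates trunk Hox genes, had 1.23 in UtxKO and 1.94 in V6.5. Nr2f2, an orphan nuclear receptor, had 2.17 in UtxKO and 0.20 in V6.5 and did not pass (adjusted p of 0.191 in limma). Egr2, which encodes Krox20, was named outside that rule, after its values were seen. It was the lowest of the list on both arrays, with -1.10 in UtxKO and -0.48 in V6.5. It did not pass (adjusted p of 0.0553 in limma). Kdm6a had -0.16 in UtxKO and -0.39 in V6.5, a ratio within each line that does not check the knockout.

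Outside the Hox clusters, the genes whose pair of ratios lay closest to the HoxB medians were Nmi (an interferon-induced partner of Myc and STAT proteins), Zfp703 (a zinc finger corepressor), the transcription factor genes Gata3 and Irx3, and Cpm (a carboxypeptidase of the cell surface). Their Euclidean distances, over 2 arrays, ran from 0.14 to 0.31 on the log2 scale. They had 2.88, 2.98, 2.97, 2.85 and 3.04 in UtxKO, and 1.92, 2.04, 2.15, 1.66 and 1.58 in V6.5. With only 2 values for each gene, such likeness holds no more than a similar size on each array.

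The labelled cell type was checked by its markers as changes, since ratios give no level. Of 8 ES cell markers, 2 fell (Klf4 and Pou5f1) and 0 rose in limma, beside 7.93% and 8.93% of all named genes. The list median was -0.30 in UtxKO and -0.62 in V6.5. Dppa3 lay above 0 on both arrays (0.44 in UtxKO and 0.17 in V6.5). Nanog did so in V6.5 alone (0.29, against -0.16 in UtxKO). Tdgf1, Esrrb, Zfp42 and Sox2 lay below 0 on both arrays but did not pass. Of 9 fibroblast markers, listed because feeder cells are common in ES cell culture, 7 fell and 0 rose, with a median of -1.36 in UtxKO and -1.24 in V6.5 and a range from -2.63 to -0.05 in UtxKO and from -1.95 to -0.19 in V6.5. Their part in the HoxB ratios was not tested.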

How the data were processed

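Total RNA was hybridised on 2 two-channel Agilent arrays, 1 for UtxKO and 1 for V6.5. The authors deposited 1 log2 ratio per feature and array. Per the submitters' processing notes limma was used, with no version or role, while its background correction and normalization are not given in the sources. The log base and the direction (Cy5 over Cy3) were inferred from the values and the labels. Column means were 0.00 and medians -0.03, and the arrays correlated at r = 0.84 across features. Spot intensities were not used here, so signal over background is unknown.

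Of 44397 features, 33026 had 1 gene symbol in the platform annotation and 11371 had none. Features of a gene were averaged. The shared response was fitted with limma 3.58.1 (R 4.3.3; lmFit with an intercept, eBayes; 1 residual and 2.98 prior degrees of freedom; two-sided; Benjamini-Hochberg over 22485 genes; threshold 0.05). Its p-values rest on the spread between 2 lines, not between cultures, and include any dye bias, since no dye swap was used here. Locus genes were matched to RefSeq by Entrez number (32 of 33) or symbol. Named genes are every member, symbols in the cluster, nearest and 2-fold neighbours, paralogs 1, 2 and 13, the 2 highest genes of each other Hox cluster, the genes of the regulator and hindbrain lists with the highest absolute means or 2-fold differences, and the 5 genes nearest in pattern. Members and lists were chosen with earlier results of these data known. Python 3.11.15, numpy 2.4.6, pandas 2.3.3, scipy 1.17.1 and matplotlib 3.10.9 were used.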

Additional observations from a re-analysis of the deposited data

Results flagged for a closer look

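Of the 33 measured genes of the locus, 6 had ratios of opposite signs on the arrays, and the differences were not tested. The share of all named genes with opposite signs was not worked out, and ratios near 0 change sign with small differences. The count is therefore no result about the locus. Hoxb13 had a log2 ratio of -0.26 in UtxKO and 0.79 in V6.5. In the stretch between Hoxb9 and Hoxb13, Gm53 had -0.06 in UtxKO and 0.13 in V6.5, and Gm11538 had -0.36 in UtxKO and 0.11 in V6.5. The pseudogene Gm11531, next to Hoxb1, had -0.08 in UtxKO and 0.03 in V6.5, and the non-coding gene Gm11529 beside it had 0.04 in UtxKO and -0.01 in V6.5. Beyond Hoxb13, Igf2bp1 had 0.10 in UtxKO and -0.31 in V6.5. All 6 genes are carried by 1 feature each.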

How the results depend on the processing

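Under 8 other settings, the 9 HoxB genes that rose kept their direction, and their side of the threshold except against 1.5-fold (treat). There 5 HoxB genes and 196 of all genes rose, against 9 and 2009. With the feature of the highest ratio for each gene, the HoxB median in UtxKO was 3.24, against 3.02. With single features in the fit, 3694 of all 44397 features rose, counting features with and without a gene symbol. The median over HoxB features was then 2.96 in V6.5 and the median difference 0.11, because 10 of the 20 features are those of Hoxb1. The adjusted p of Hoxb13 ranged from 0.486 to 1. No paired analysis was possible because each line has 1 array. The number of arrays limits the precision, and signal over background is unknown.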

Other observations

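Of 14 measured hindbrain genes and HoxB targets, 3 rose and 4 fell in limma, beside 8.93% and 7.93% of all named genes, with a list median of -0.07 in UtxKO and 0.05 in V6.5. Gata3, a transcription factor of neurons and T cells, had a log2 ratio of 2.97 in UtxKO and 2.15 in V6.5. Irx3, a homeobox factor of the neural tube, had 2.85 in UtxKO and 1.66 in V6.5. Otx2, which marks the forebrain and midbrain and is absent from the hindbrain, had -2.24 in UtxKO and -2.08 in V6.5. Gata3 and Irx3 rose and Otx2 fell, with adjusted p of 0.0126, 0.0244 and 0.00626 in limma. Isl1 also rose, and Epha4, Fgf3 and Olig2 also fell, all named after their values were seen. Isl1 had 0.36 in UtxKO and 0.37 in V6.5. Epha4, Fgf3 and Olig2 had -0.88, -0.53 and -1.79 in UtxKO, against -1.60, -0.78 and -0.95 in V6.5. The list thus showed no common direction. Hoxa2 did not pass (adjusted p of 0.0525 in limma), with ratios given above.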
